A study of Mus musculus with 2 samples.

Results

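A group of 10 genes around the peroxisome proliferator-activated receptors was followed in cultured embryonic ureters: the PPAR genes Pparg, Ppara and Ppard, the retinoid X receptor genes Rxra, Rxrb and Rxrg, the C/EBP genes Cebpa, Cebpb and Cebpd, and Fabp4. They were chosen by name. All gene probes of the array whose accession belongs to one of these symbols were taken, which gave 14 of 39429 probes and 10 of the 21337 genes tested. All 14 probes passed the filter on dim probes and were well above background on every spot used. The genes were picked with values of the same comparison already known, so their ratios are a description and carry no test.

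PPARs are nuclear receptors that bind fatty acids and their derivatives, and they occupy DNA as heterodimers with an RXR. In adipocyte precursors CEBPB and CEBPD act early and switch on Pparg and Cebpa, whose products then maintain each other and drive fat cell genes such as Fabp4. In the urothelium, the epithelium that lines the ureter and bladder, PPARG is known as a regulator of differentiation.

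The tissue was the whole ureter of wildtype NMRI mouse embryos of mixed sex at E12.5, kept for 18 h on transwell membranes. One condition received 10 µg/ml NOGGIN, an extracellular antagonist of bone morphogenetic proteins (BMPs), and the other had medium without it. RNA of 1 NOGGIN culture and 1 control culture was hybridised together on each of 2 Agilent 2-colour arrays, replicates 1 and 2, with the dyes exchanged. The labels do not say how many ureters were pooled or whether the replicates came from separate litters, so SDs and p-values measure only the spread between these arrays, which may be technical.

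Values are normalised log2 signals, and a ratio is the NOGGIN-labelled minus the control-labelled signal on the same array. The share of gene spots well above background ran between 67.3% and 74.3% over the 4 channels, and the number of arrays, 2, limits the precision. Markers of the epithelium (12 of 12), the ureteric mesenchyme (10 of 10) and smooth muscle (8 of 8) passed the filter on dim probes. The direction of the ratios was not settled. By the dyes in the labels, 10 of 10 BMP target genes were higher in the NOGGIN-labelled channel, with a median of 1.31 (for Bambi only a bound, since its probe was not well above background in the control-labelled channels), although BMP signalling is known to induce such genes. The sign in the authors' deposited table is the reverse, with r = -0.970 against the ratios of the same array on both replicates, across 25020 probes, which are not independent replicates. The columns of that table belong to samples titled NOGGIN treated vs control. All directions here follow the dyes in the labels. Turning the sign would exchange higher and lower throughout and leave sizes, SDs and p-values as they are.

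Pparg was the only one of the 10 genes that differed by at least 1.5-fold the same way on both arrays, a size that 2.9% of all genes reached. It encodes PPARγ, the master regulator of fat cell differentiation. Its log2 signal was 13.29 and 13.47 in the NOGGIN-labelled channels and 11.66 and 11.09 in the control-labelled channels of replicates 1 and 2. Both NOGGIN-labelled signals were above both control-labelled ones. The ratio was 1.63 and 2.37, a mean of 2.00 ± 0.53 (SD, n = 2) or 4.01-fold. Its 4 spots ranged between 1.58 and 1.70 on replicate 1 and between 2.35 and 2.40 on replicate 2, so the arrays differed by more than the spots within them. The signal of replicate 2 minus that of replicate 1 was 0.18 in the NOGGIN-labelled channels and -0.57 in the control-labelled channels. These signals were taken after quantile scaling of mean intensity between the arrays. The dyes were exchanged, so a gap between arrays within a condition is also a gap between dyes. The authors' deposited table gives Pparg signed fold changes of -3.14 and -5.36. In whole ureters, fewer cells of a type and less RNA per cell cannot be told apart, and this holds for every gene below.

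The mouse Pparg locus has several transcription starts, and the promoter windows are shown because it is the gene with the largest ratio among the 10. RefSeq (GRCm38.p6) lists 3 windows, each reaching from 250 bases before a start to 50 bases after it, on the plus strand at chr6:115360894-115361193, chr6:115362099-115362398 and chr6:115421816-115422115. Capitals mark matches on either strand to GGCGCC, a GC-rich motif bound by BMP-responsive SMADs, in the first window and to TTGCNNAA, a C/EBP core, in the third.
Pparg window 1: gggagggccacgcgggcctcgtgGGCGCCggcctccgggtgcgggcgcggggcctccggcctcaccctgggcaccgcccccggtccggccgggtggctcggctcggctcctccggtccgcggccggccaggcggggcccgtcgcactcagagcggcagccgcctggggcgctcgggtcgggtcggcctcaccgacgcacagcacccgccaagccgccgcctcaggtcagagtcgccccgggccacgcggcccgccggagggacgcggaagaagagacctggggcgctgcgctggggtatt
Pparg window 2: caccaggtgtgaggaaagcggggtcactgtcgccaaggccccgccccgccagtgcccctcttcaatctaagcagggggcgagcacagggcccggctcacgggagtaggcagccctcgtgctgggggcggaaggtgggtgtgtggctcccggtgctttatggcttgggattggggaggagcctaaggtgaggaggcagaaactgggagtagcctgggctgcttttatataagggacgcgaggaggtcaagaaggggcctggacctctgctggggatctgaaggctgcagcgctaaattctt
Pparg window 3: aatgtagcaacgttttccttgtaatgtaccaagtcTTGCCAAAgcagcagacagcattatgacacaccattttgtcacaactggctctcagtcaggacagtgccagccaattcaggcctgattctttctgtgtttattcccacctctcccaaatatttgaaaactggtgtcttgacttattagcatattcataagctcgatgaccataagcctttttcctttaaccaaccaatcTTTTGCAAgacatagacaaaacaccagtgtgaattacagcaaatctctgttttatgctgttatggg
The first window was 80.3% GC, the second 62.7% and the third 40.3%, against a median of 52.7% over all 32851 windows of the table. The GGCGCC match began at position -227 relative to the first start, and the C/EBP core matches at -215 and -16 relative to the third. Window 2 held none of the 4 motifs searched. GGCGCC occurred in 11.9% of all windows and the C/EBP core in 10.8%. The other 2 motifs searched, GTCTAGAC (0.213% of all windows) and the DR1 direct repeat bound by PPAR and RXR pairs (0.0396%), were in none of the 13 windows of the 8 genes with an entry. GGCGCC also occurred in windows of Ppara, Ppard, Rxrb, Cebpa and Cebpb, and the C/EBP core in 1 window of Rxrg. The windows with GGCGCC, itself all G and C, were between 67.3% and 82.0% GC, above the median of all windows. The first Rxra window, at 83.0% GC, held no match. These matches describe letters only, and the arrays do not tell which start was used.

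**Figure D1:**
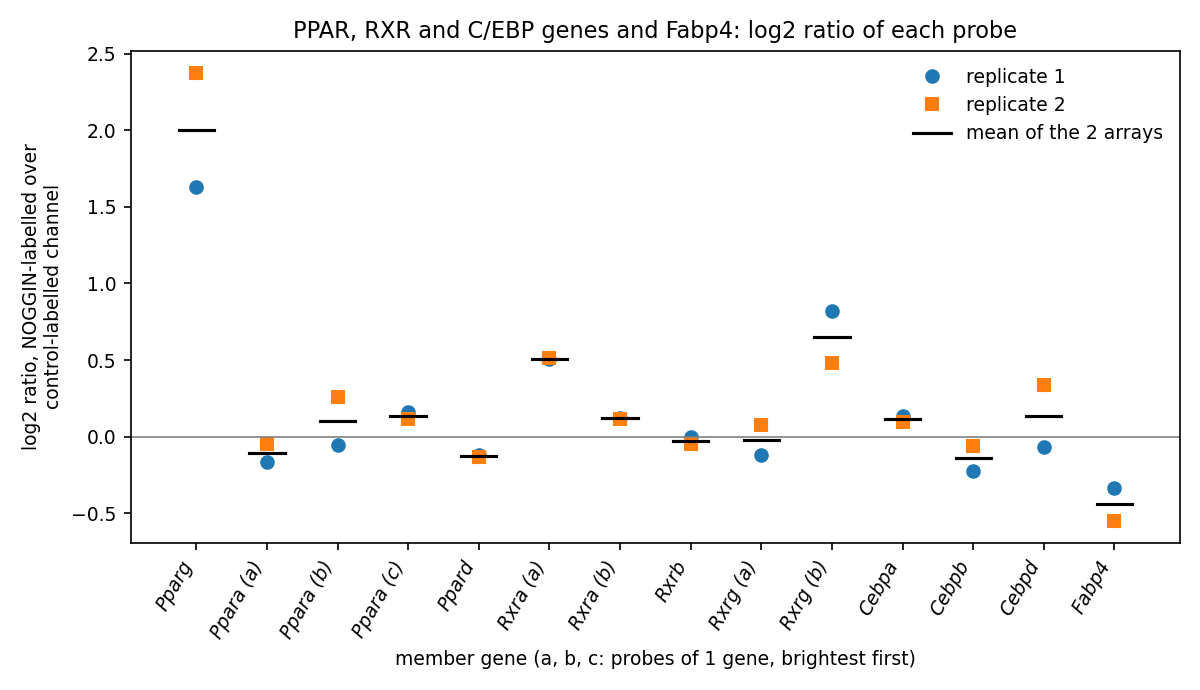
Log2 ratio of the NOGGIN-labelled over the control-labelled channel (vertical axis) for each of the 14 probes (horizontal axis), with a circle for replicate 1, a square for replicate 2 and a bar for their mean. Pparg stands at 1.63 and 2.37, and 7 of the 10 genes have a mean under 0.2 in size for their brightest probe.

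The other PPAR genes showed small ratios. Ppard, the widely expressed family member that is linked to fatty acid oxidation, had signals of 11.54 and 11.58 in the NOGGIN-labelled channels and 11.66 and 11.71 in the control-labelled channels. The NOGGIN-labelled signals were both below the control-labelled ones, and the ratio was -0.12 and -0.14, a mean of -0.13 ± 0.012 (SD, n = 2). Ppara, which encodes the receptor that drives fatty acid oxidation in liver, was measured by 3 probes. The brightest had 9.25 and 9.44 in the NOGGIN-labelled channels against 9.41 and 9.49 in the control-labelled channels, so the channels overlapped across arrays. Its mean ratio was -0.11 ± 0.081. The other probes of Ppara had mean ratios of 0.10 ± 0.22 and 0.14 ± 0.032 (SD, n = 2 each), so the probes differed in sign and no direction is given for the gene.

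RXR genes encode the obligate partners of PPARs and of several other nuclear receptors. Rxra, the main RXR of skin and liver, was measured by 2 probes that differed in size. The brighter one had 8.87 and 8.92 in the NOGGIN-labelled channels and 8.37 and 8.40 in the control-labelled channels. Its channels did not overlap, and the ratio was 0.50 and 0.51, a mean of 0.51 ± 0.0065 (SD, n = 2). The spots of this probe ranged between 0.37 and 0.71 on replicate 1 and between 0.35 and 0.58 on replicate 2, a spread far wider than the gap between the array means. Its signed fold changes in the authors' deposited table are -1.55 and -1.57. The second Rxra probe had 8.40 and 8.48 in the NOGGIN-labelled channels and 8.28 and 8.36 in the control-labelled channels. It gave 0.12 ± 0.0028, and the mean over both probes was 0.31.

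Rxrb, which encodes a broadly expressed RXR, had signals of 13.89 and 13.97 in the NOGGIN-labelled channels and 13.89 and 14.02 in the control-labelled channels. Its mean ratio was -0.027 ± 0.030 (SD, n = 2), and the channels overlapped. Rxrg, the RXR gene of muscle and parts of the nervous system, was measured by 2 probes that did not give the same picture. Its brighter probe had 11.97 and 12.00 in the NOGGIN-labelled channels and 12.09 and 11.92 in the control-labelled channels, with ratios of -0.12 and 0.08 on the 2 arrays. The dimmer probe had 9.29 and 8.72 in the NOGGIN-labelled channels and 8.47 and 8.24 in the control-labelled channels. Its ratios were 0.82 and 0.48, a mean of 0.65 ± 0.24, and its channels did not overlap, whereas the brighter probe had a mean of -0.020 ± 0.14. Which probe reports the Rxrg transcript present in the ureter was not tested.

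**Figure D2:**
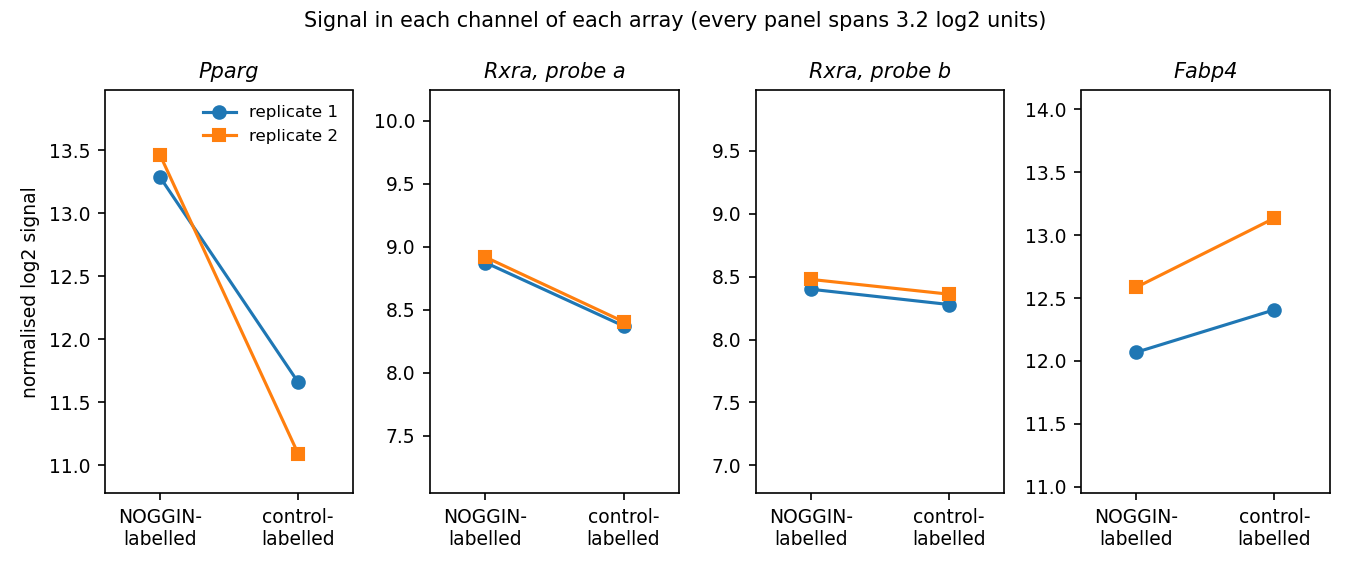
Normalised log2 signal (vertical axis, every panel spanning the same number of log2 units) in the NOGGIN-labelled and the control-labelled channel for Pparg, both Rxra probes and Fabp4, with lines joining the channels of 1 array. The Pparg lines drop from 13.29 and 13.47 on the NOGGIN side, the second Rxra probe is nearly flat, and the Fabp4 lines are the ones that climb towards the control side.

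The C/EBP genes, bZIP transcription factors that act with PPARG in adipogenesis, all had mean ratios under 0.2 in size. Cebpa, the late-acting C/EBP gene, had signals of 9.25 and 9.08 in the NOGGIN-labelled channels and 9.12 and 8.98 in the control-labelled channels. Its ratio was 0.14 and 0.094, a mean of 0.12 ± 0.030 (SD, n = 2). Cebpb, an early-acting and inflammation-responsive C/EBP gene, had 11.91 and 11.81 in the NOGGIN-labelled channels and 12.13 and 11.87 in the control-labelled channels, with a mean ratio of -0.14 ± 0.11. The channels of both genes overlapped across arrays. Cebpd, the other early-acting gene, had 11.96 and 12.16 in the NOGGIN-labelled channels and 12.03 and 11.83 in the control-labelled channels. Its ratio was -0.069 on replicate 1 and 0.34 on replicate 2, so the arrays differed in sign, and the mean of 0.13 ± 0.29 was smaller than its SD.

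Fabp4 encodes a fatty acid-binding protein of adipocytes that capillary endothelium and macrophages also make, and its gene is a standard PPARG target in fat. It ran opposite to Pparg. Signals were 12.07 and 12.59 in the NOGGIN-labelled channels and 12.41 and 13.14 in the control-labelled channels. The control-labelled signal was the higher one on each array, but the NOGGIN-labelled signal of replicate 2 lay above the control-labelled one of replicate 1. The ratio was -0.34 and -0.55, a mean of -0.44 ± 0.15 (SD, n = 2), from 3 spots on replicate 1 and 4 on replicate 2. The signed fold changes of Fabp4 in the authors' deposited table are 1.29 and 1.45.

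Cell types that are known to make Fabp4 were followed through marker lists. Of 14 endothelial markers 1 was higher and 0 were lower, with a median of 0.049 (0.045 on replicate 1 and 0.12 on replicate 2) and a summed linear signal of 69168 and 78589 in the NOGGIN-labelled channels against 64778 and 72304 in the control-labelled channels. Ptprb was the endothelial gene past the threshold (0.58 ± 0.26, limma adjusted p = 0.041), while Pecam1 (0.17 ± 0.12, adjusted p = 0.30) and Cdh5 (0.34 ± 0.13, adjusted p = 0.080) were not. Ptprb was not past the threshold with the values of the authors' deposited table (adjusted p = 0.063), limma with an intensity trend and robust moderation (adjusted p = 0.066), a fit of separate channels (adjusted p = 0.083) or median centring in place of loess (adjusted p = 0.18). Of 9 macrophage markers above background 0 passed in limma and 4 had an unadjusted p under 0.05, with a median of -0.25 (-0.44 on replicate 1 and -0.061 on replicate 2) and a summed signal of 29296 and 28505 in the NOGGIN-labelled channels against 37717 and 28412 in the control-labelled channels. Adipocyte markers gave next to no signal. The probes of 6 of 7, Adipoq, Lep, Cfd, Plin1, Cidec and Ucp1, did not pass the filter, although that of Plin1 was well above background in 1 channel of each condition. The other one, Retn, had a ratio of -0.46 ± 0.27 (adjusted p = 0.080). The part of these cells in the Fabp4 ratio was not tested.

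In the fit over all genes 3 of the 10 genes were past an adjusted p of 0.05, namely Pparg and Rxra higher and Fabp4 lower, where 7.97% of all genes passed (3.95% higher and 4.03% lower). Because the genes were picked on this comparison, nothing is read from that count. Median centring in place of loess left 0 of the 10 past the threshold, and an intensity trend with robust moderation left 1, Pparg. Both arrays gave the same sign for 8 of the 10, where 66.7% of all genes had the same sign. The median ratio of the 10 was -0.023, against 0.00083 over all genes, and the median size was 0.13, against 0.10.

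Genes whose pair of ratios lay nearest to that of Pparg were found by Euclidean distance over the 2 arrays. Id4 came first, at a distance of 0.082, with ratios of 1.57 and 2.32, and Id1 next, at 0.10, with 1.54 and 2.41. Both belong to the BMP target list given above. Farther away were Brinp3 at 0.45 with 1.34 and 2.03 and Sct at 0.50 with 1.32 and 1.99. With only 2 values per gene the distance describes size and spread between arrays and nothing more. Id1 had 13.42 and 13.57 in NOGGIN-labelled and 11.88 and 11.15 in control-labelled channels. Id4 had 15.05 and 14.99 in NOGGIN-labelled and 13.48 and 12.67 in control-labelled channels. As for Pparg, the gap between arrays was larger in the control-labelled channels, and it is also a gap between dyes. The choice by ratio pair already set how far the gaps of the conditions differ, so nothing further is read from this likeness.

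**Figure D3:**
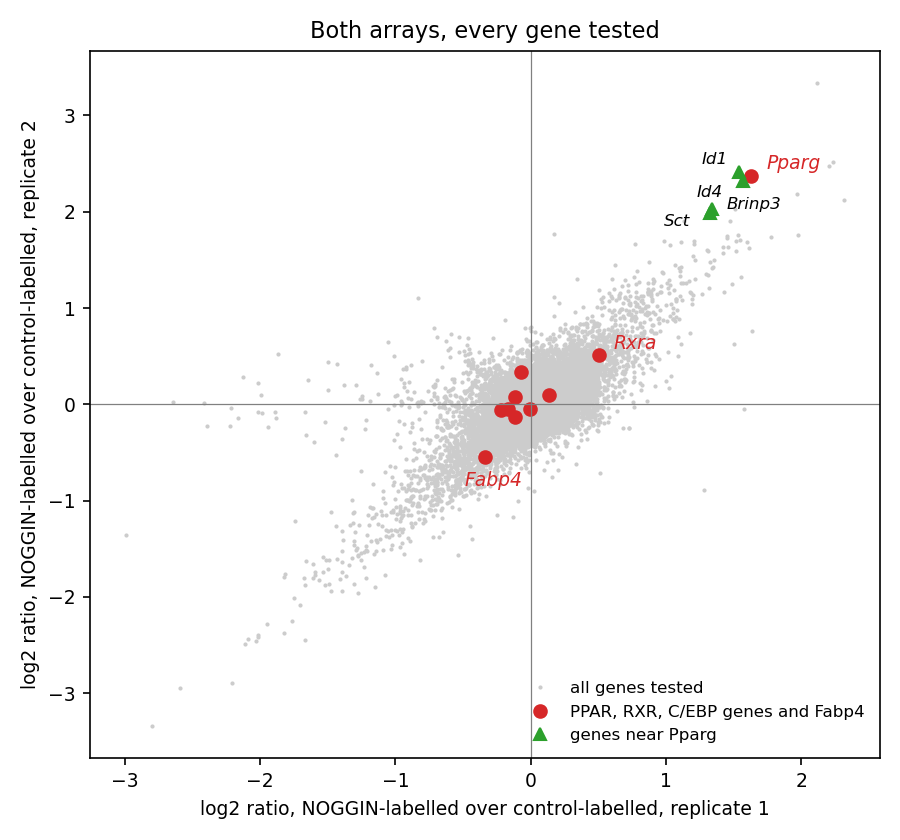
Log2 ratio of every gene tested on replicate 1 (horizontal axis) and replicate 2 (vertical axis), with the 10 genes as red circles and Id4, Id1, Brinp3 and Sct as green triangles. Pparg lies beside Id1 and Id4 in the upper right, Rxra and Fabp4 lie at the edge of the central cloud, and the other 7 genes lie nearer to the origin.

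Genes that work with these factors or are known to respond to them were read from 11 lists. Of 129 genes tested 17 passed, 12 higher and 5 lower, or 13.2% against 7.97% of all genes, with a median ratio of 0.031. The lists were chosen with earlier results of these data known, so nothing is read from the difference between these shares. Among 16 coregulators of PPARs and RXRs 0 passed in limma (median 0.0017), and 4 had an unadjusted p under 0.05. Ppargc1a, a coactivator of mitochondrial genes, had 0.038 ± 0.10 (adjusted p = 0.83), and the corepressor Ncor1 0.058 ± 0.052 (adjusted p = 0.71). Of 11 other nuclear receptors that pair with RXR 0 passed (4 at an unadjusted p under 0.05, median 0.087, and 0.083 and -0.011 on replicates 1 and 2), the brightest being Rarb at 0.0067 ± 0.11 and Rarg at 0.23 ± 0.044, both retinoic acid receptors. The mean over the kept Rarb probes was -0.17, so its probes differed in sign. Of 8 other C/EBP or partner bZIP factors 0 passed (2 at an unadjusted p under 0.05, median -0.029). The stress factor Atf4 had -0.27 ± 0.078 (adjusted p = 0.12) and Tef 0.096 ± 0.037 (adjusted p = 0.51).

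The genes past the threshold in the 4 lipid lists, which leave out Fabp4, were all higher. Fatty acid uptake and binding had 4 of 12 genes higher and 0 lower (median 0.12, and 0.16 and 0.074 on replicates 1 and 2): Lpl, a lipase that frees fatty acids from lipoproteins (0.54 ± 0.20, adjusted p = 0.038), the fatty acid transporter Cd36 (0.44 ± 0.13, adjusted p = 0.041), the lipoprotein receptor Vldlr (0.39 ± 0.012, adjusted p = 0.040) and the acyl-CoA synthetase Acsl1 (0.37 ± 0.016, adjusted p = 0.047). Lpl had 14.50 and 14.66 in the NOGGIN-labelled channels against 13.82 and 14.27 in the control-labelled channels, and Cd36 had 11.24 and 11.47 against 10.89 and 10.94, with no overlap in either. A second Lpl probe gave 0.29. Angptl4, a PPAR target that inhibits Lpl (0.34 ± 0.041, adjusted p = 0.060), and Fabp5 (0.090 ± 0.038, adjusted p = 0.54) were not past the threshold. Oxidation and ketogenesis had 2 of 17 genes higher (median 0.081), among them the pyruvate dehydrogenase kinase Pdk4, a textbook PPARA target (0.65 ± 0.11, adjusted p = 0.015). Pdk4 had 8.61 and 8.78 in the NOGGIN-labelled channels against 7.88 and 8.20 in the control-labelled channels. Cpt1a, which brings fatty acids into mitochondria, had 0.13 ± 0.13 (adjusted p = 0.41). Of 14 genes of lipid synthesis or LXR and RXR targets 1 passed (median 0.033), the cholesterol exporter Abca1 (0.74 ± 0.091, adjusted p = 0.010). Of 10 lipid droplet genes 0 passed (2 at an unadjusted p under 0.05, median 0.043, and -0.042 and 0.11 on replicates 1 and 2), with Plin2 at 0.29 ± 0.016 (adjusted p = 0.088) and Plin3 at 0.14 ± 0.012 (adjusted p = 0.33). With the intensity trend 0 of the 12 uptake genes and 2 of the 17 oxidation genes passed, and with median centring 0 of either. A fit of separate channels left 1 of the 12 uptake genes and 1 of the 17 oxidation genes. For uptake, the authors' deposited fold changes also left 1, and Agilent processed signals left 2. A normexp offset of 0 and the mean over probes left 3 each, and the median of spots 4. With every spot required to be well above background 4 of 11 uptake genes passed, and without the filter 5 of 14.

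**Figure D4:**
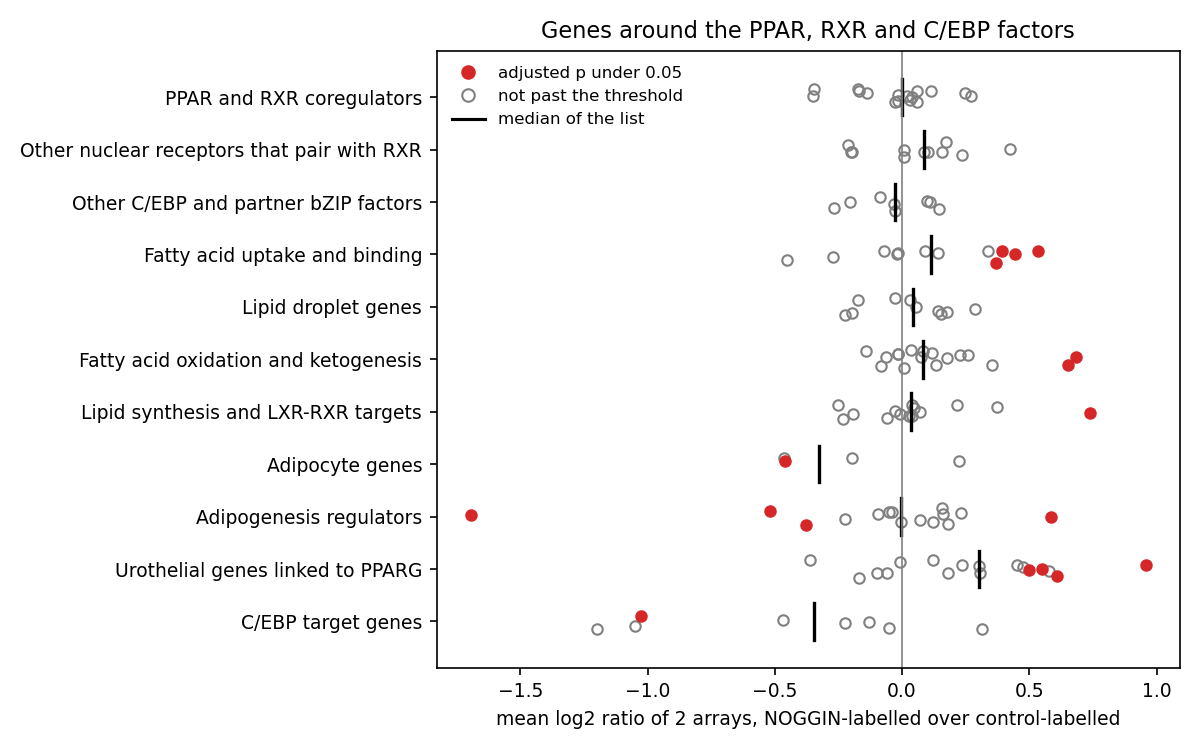
Mean log2 ratio of the 2 arrays (horizontal axis) for each gene tested in the 11 lists (rows), filled where the limma adjusted p was under 0.05, with a black bar at the list median. Filled points lie to the right in the lipid and urothelial lists, and Ebf2 at -1.70 is the farthest to the left.

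Most fat cell genes were too dim to test, and regulators of adipogenesis passed in both directions. Of 11 adipocyte genes 7 did not pass the filter, Adipoq being not well above background in any channel. Of the 4 tested Adrb3, the adrenergic receptor of fat cells, was lower (-0.46 ± 0.043, adjusted p = 0.028), although a second kept probe of it gave -0.11. Adrb3 was not past the threshold with the intensity trend, separate channels, the mean over probes or median centring. Adipogenesis regulators had 1 of 15 higher and 3 lower (median -0.0022), where 3.95% of all genes were higher and 4.03% lower. Gata2, which holds back fat cell differentiation, was higher (0.59 ± 0.14, adjusted p = 0.021). Ebf2, a transcription factor of brown fat precursors, was lower, with a mean ratio of -1.70 ± 0.18 (adjusted p = 0.0034), with 7.39 and 7.29 in the NOGGIN-labelled channels against 8.96 and 9.12 in the control-labelled channels. Klf4, which activates Cebpb in adipocyte precursors, was lower (-0.52 ± 0.13, adjusted p = 0.028). Wnt10b, a WNT ligand that inhibits adipogenesis, is the third lower gene (-0.38 ± 0.073, adjusted p = 0.049), but its probe was well above background in the NOGGIN-labelled channel of only 1 of 2 arrays and passed the filter through the control-labelled channels. With every spot required to be well above background, 1 of 14 regulators was higher and 2 were lower. With the intensity trend 0 of the 15 were higher and 1 was lower, with separate channels 1 and 1, and with median centring 0 and 0. Of 8 C/EBP target genes 1 was lower and 0 were higher (median -0.35, and -0.31 and -0.064 on replicates 1 and 2), the growth arrest gene Gadd45a (-1.03 ± 0.17, adjusted p = 0.0068).

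Urothelial genes linked to PPARG had 4 of 17 higher and 0 lower, with a median of 0.30, which was 0.41 on replicate 1 and 0.21 on replicate 2. Sprr1a, a gene of the cornified envelope, was higher by 0.96 ± 0.31 (adjusted p = 0.016), with 12.66 and 12.35 in the NOGGIN-labelled channels against 11.49 and 11.61 in the control-labelled channels. Upk2, a uroplakin of the luminal membrane (0.61 ± 0.23, adjusted p = 0.031), Foxa1, a pioneer factor of the urothelium (0.55 ± 0.0089, adjusted p = 0.017), and Hpgd, which breaks down prostaglandins (0.50 ± 0.033, adjusted p = 0.022), were higher as well. With the intensity trend 1 of the 17 urothelial genes passed, and with median centring 0. Acsl1, Wnt10b, Hpgd, Krt19 and Krt8 were named after their values were seen. Epithelial markers as a whole had 0 of 12 higher and 1 lower (Cldn4, -0.55 ± 0.22, adjusted p = 0.039), a median of -0.038, and a summed signal of 262024 and 256873 in the NOGGIN-labelled channels against 235747 and 257676 in the control-labelled channels. Of these 12 markers 5 had a positive mean ratio, and 4 had an unadjusted limma p under 0.05. Besides Cldn4 the latter were Upk1b (0.48 ± 0.31), Krt19 (0.46 ± 0.29) and Krt8 (0.23 ± 0.15), all positive and not past the threshold. Cldn4 was not past the threshold with the intensity trend (limma adjusted p = 0.074) or median centring (adjusted p = 0.12). It also fell short with Agilent processed signals (adjusted p = 0.052), the mean over probes (adjusted p = 0.053) and the deposited table (adjusted p = 0.059). Smooth muscle markers had 5 of 8 lower (median -0.92) and 0 higher. The part of a changed cell make-up in the ratios of Pparg and of the lists was not tested.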

How the data were processed

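Both channels of each scan were deposited by the authors as linear spot intensities, together with a log10 ratio of red over green. The submitters' processing notes name Agilent Feature Extraction 10.7.3.1 as the software. The log10 ratio, per the file headers the software's own value, was not used. A further deposited table gives, for every probe on either array, a signed fold change in which a ratio below 1 is written as its negative reciprocal (treated as a score). The sources used here do not give its normalisation, and the median of each column is 1.

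Intensities were background-corrected with normexp (offset 50), normalised by loess within arrays and averaged over up to 4 spots per probe. Outlier spots (3.69% on each array), filler and control spots were left out. Ratios were turned to NOGGIN over control by the dyes in the labels. For the channel signals, mean intensity was also quantile-scaled between the arrays, which leaves the ratios as they are. Accessions were matched to RefSeq symbols (GRCm38.p6), which named 28328 probes and left 11101 unnamed. A probe was kept if over 0.5 of its spots were well above background on both arrays in at least 1 condition, leaving 26712 probes. The brightest kept probe stood for a gene. Ratios of 21337 genes were tested against 0 with limma 3.58.1 in R 4.3.3 (lmFit and eBayes, two-sided, Benjamini-Hochberg over all genes, threshold 0.05), with 1 residual and 4.12 prior degrees of freedom. The steps were tested on simulated data. There 96% of genes changed by a log2 size of 1 were recovered, and 22 of 217 calls at this threshold were false, a larger share than 0.05. The simulated noise took its spread from the limma fit itself. Changes of a log2 size of 1 and 2 were planted in 100 genes each, so recovery of smaller changes was not tested.

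The 10 genes and the lists were chosen with earlier results of these data known. Named list genes are up to 3 per list past the threshold with the largest ratios, or else the 2 brightest, a few genes fixed by name, up to 3 per marker list and the 5 nearest to Pparg, with predicted genes passed over. A few of these are not reported here. Alternatives were other background corrections, normalisations, filters, spot and probe summaries, 2 changes to the limma test, the values of the deposited table, and either array by itself.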

Additional observations from a re-analysis of the deposited data

How the results depend on the processing

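Among the 11 alternatives with a test, median centring in place of loess left 0 genes past the threshold in limma, against 1701 of all genes in the report, although 3572 had an unadjusted p under 0.05. The counts fell to 0 of the 10 genes (3 at an unadjusted p under 0.05) and 0 of the 129 list genes (33). Limma with an intensity trend and robust moderation gave 600 genes, 1 of the 10 (Pparg) and 6 list genes, against 17 in the report. A fit of separate channels with no replicate block gave 10 list genes. The cause was not tested. The ratio of Pparg lay between 1.95 and 2.04 over these alternatives and was past the threshold in 10 of 11. That of Rxra lay between 0.31 and 0.65 and was past it in 8, missing with median centring, the mean over probes and the trend. Fabp4 lay between -0.49 and -0.44 and was past it in 5. Ppara (-0.11) and Rxrg (-0.020) had means of 0.043 and 0.32 over all probes. No called ratio of the 10 changed sign. Each array alone leaves no residual degree of freedom and gave values without a test, and quantile scaling leaves the ratios as they are by construction. Each array carries both conditions, so its ratio is already paired. With 2 arrays, ratios of dim probes such as those of Rxra rest on the least signal over background.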
